A study of Saccharomyces cerevisiae with 24 samples.

Results

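The step from 210 min to 220 min of a yeast metabolic cycle was described from 2 of the 24 samples of a time course, the RNA-seq library of 220 min and the RNA-seq library of 210 min. The samples were chosen by their time labels alone, and the other 10 RNA-seq libraries entered no difference between these times, but set the filter on low genes, the scaling factors and the place of each level in the course. Both come from CEN.PK, a laboratory strain of Saccharomyces cerevisiae, cycling in minimal medium, and the labels name no mutation or drug. In their labels they differ only in the time of sampling. RNA came from whole culture, so fewer cells with a transcript and less transcript per cell cannot be told apart. Each time had 1 library, so every difference below lacks a replicate check and is a description with no test.

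In the yeast metabolic cycle, dense cultures on a slow glucose feed alternate in step between strong and weak respiration. In background from other studies, transcripts for making ribosomes and amino acids peak in an oxidative phase, those for mitochondria and cell division follow in a reductive building phase, and those for storage carbohydrate, stress defence and fatty acid oxidation mark a reductive charging phase. Ribosome production is governed in yeast by nutrient signals through the TOR and protein kinase A pathways, while the stress and storage genes are known targets of factors such as Msn2 and Msn4.

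Levels are given as RPKM, reads per kilobase of gene scaled to library size, obtained by dividing the deposited coverage signal by an estimated read length of 50 bases. A difference is that of log2(RPKM + 1) at 220 min minus 210 min, which understates the change of low genes. Of 6562 genes in the table, the 5979 averaging 10 RPKM or more in the 12 libraries were kept. The kept gene nearest that limit, MND1, averaged 10.02 RPKM, and HFM1, the nearest gene outside it, averaged 9.996 RPKM. Depth was estimated at 5650000 reads at 220 min and 4690000 at 210 min, within the range of 4360000 to 5960000 over all 12 libraries. In a kilobase of gene, 1 read is worth 0.177 RPKM at 220 min, against 0.213 RPKM at 210 min. The median kept gene of known length had 340 reads at 220 min and 328 at 210 min. The top 10 genes by level held 7.17% of all signal at 220 min, against 7.61% at 210 min.

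Across the step, 395 genes (6.61%) were at least 2-fold higher at 220 min than at 210 min, and 857 (14.3%) were at least 2-fold lower. The higher side was shallow and the lower side deep. At least 4-fold higher were 11 genes (0.184%), and at least 4-fold lower were 202 (3.38%). The median difference of all kept genes was -0.16 with quartiles of -0.62 and 0.30. The extremes were 3.03 at the top and -4.54 at the bottom. Of the kept genes, 3609 (60.4%) lay below 0. Deposited values are scaled to library size, so a gene group that takes a larger share lowers the values of the others. Under median-ratio scaling, which sets the typical gene equal between libraries, all differences shifted by about 0.24, and 646 genes (10.8%) were then at least 2-fold higher and 602 (10.1%) at least 2-fold lower. The median of all kept genes was then 0.06, so the excess of lower over higher genes at 2-fold depended on the scaling. The genes nearest the 2-fold line on the higher side were NCL1 inside it, at a difference of 1.0009, and NCA3 outside it, at 0.9986. On the lower side they were YHR180W inside it, at -1.003, and RFA1 outside it, at -0.9999.

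At the deposited scaling, the steps beside this one had fewer genes past 2-fold in both directions together. From 200 min to 210 min, 88 genes (1.47%) were at least 2-fold higher at 210 min and 23 (0.385%) at least 2-fold lower. From 220 min to 230 min, 400 (6.69%) were at least 2-fold higher at 230 min and 386 (6.46%) lower. The earlier pair of 180 min and 200 min gave 7 genes (0.117%) higher and 3 (0.0502%) lower at 200 min. The robust SD of the difference over all kept genes, a measure of its width, was 0.69 for 220 over 210 min. It was 0.20 for 200 over 180 min, 0.34 for 210 over 200 min and 0.52 for 230 over 220 min. The pairs on either side of the 210 to 220 min step each share a library with it, so their counts are not independent of it.

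**Figure D1:**
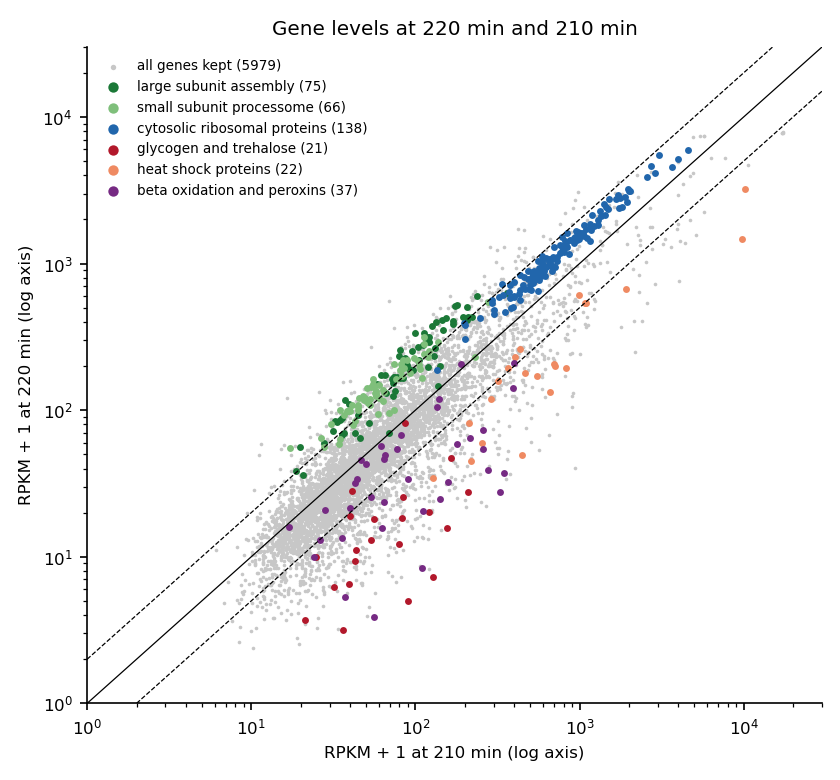
Levels of the 5979 kept genes as RPKM + 1 at 220 min (vertical, log axis) against 210 min (horizontal, log axis), 1 point a gene and 1 library a time, with 6 gene lists in colour. The solid line marks equal levels and the broken lines 2-fold; ribosome assembly genes lie above the upper broken line or near it, and glycogen, trehalose, heat shock and fatty acid oxidation genes below the lower one or near it.

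The 11 genes at least 4-fold higher were a mixed group, all of which had their highest level of the 12 libraries at 220 min. PRM7 (YDL039C, chromosome IV, 381985 to 384081, build R64), a pheromone-regulated gene by name, stood at 119 RPKM at 220 min, against 15.5 at 210 min, a difference of 2.87. It was 7.31-fold higher at 220 min on the scale with 1 RPKM added, and back at 23.4 RPKM at 230 min. AAH1 (YNL141W, chromosome XIV, 359596 to 360639), the adenine deaminase of purine salvage, stood at 1288 RPKM at 220 min and 282 at 210 min (difference 2.19). These levels rest on an estimated 7596 reads at 220 min and 1382 at 210 min. MCH5 (YOR306C, chromosome XV, 889867 to 891432), the plasma membrane riboflavin transporter, had 270.5 RPKM at 220 min, 52.7 at 210 min and a difference of 2.34.

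The remaining genes past 4-fold on the higher side were spread over several roles. SAM1, an S-adenosylmethionine synthetase, had 1713 RPKM at 220 min against 420 at 210 min. MAE1, the mitochondrial malic enzyme, had 370 RPKM at 220 min against 87.5 at 210 min. TPO2, a polyamine exporter, had 154 RPKM at 220 min against 35.3 at 210 min, ANS1 132 RPKM at 220 min against 24.8 at 210 min and INA1 57.5 RPKM at 220 min against 10.5 at 210 min. IMD4, an IMP dehydrogenase of guanine nucleotide synthesis, had 360 RPKM at 220 min against 73.0 at 210 min. SAM1 and SAM2 are close copies, as are IMD3 and IMD4, and the counting may have split their reads. Their separate values are uncertain, and IMD4 also overlaps another annotated gene. IMD3 was at 414 RPKM at 220 min against 200 at 210 min, and SAM2 at 1474 RPKM at 220 min against 660 at 210 min. The largest difference of any kept gene was that of YMR244W (chromosome XIII, 757250 to 758317), at 558 RPKM at 220 min and 67.6 at 210 min (difference 3.03), and the last gene past 4-fold was YBL070C, which was not matched to the annotation and had 48.7 RPKM at 220 min against 10.2 at 210 min. Neither has a symbol, so both lie outside the naming rule, as do IMD3 and SAM2, and these 4 were picked after their values were seen.

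The genes for building ribosomes formed the main block on the higher side. Of 66 kept genes of the small subunit processome, which folds and cuts the pre-ribosomal RNA of the small subunit, 51 were at least 2-fold higher at 220 min and none lower. Of 75 large subunit assembly factors, 57 were at least 2-fold higher and none lower. Their median differences were 1.20 and 1.19, beside -0.16 for all kept genes. The median processome gene stood at 129 RPKM at 220 min and 56.8 at 210 min, and the median large subunit factor at 194 RPKM at 220 min and 85.5 at 210 min. At 220 min, 61 of the 66 and 66 of the 75 had their highest level of the 12 libraries. SQT1 (YIR012W), a chaperone of the large subunit protein Rpl10, had 334 RPKM at 220 min and 97.8 at 210 min (difference 1.76). PRP43, an RNA helicase of ribosome assembly and of splicing, had 255 RPKM at 220 min against 79.4 at 210 min. The helicase gene DHR2 had 53.8 RPKM at 220 min against 16.3 at 210 min, and LCP5, a processome component, had 161 RPKM at 220 min against 54.2 at 210 min. These 4 are the most extreme of their lists, whose differences ran from -0.01 to 1.67 for the processome and from 0.02 to 1.76 for large subunit assembly.

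The machinery that guides and modifies ribosomal RNA moved in the same direction. Of 18 genes of snoRNP cores and other nucleolar proteins, 11 were at least 2-fold higher at 220 min and 1 lower, with a median difference of 1.24. NSR1 (YGR159C, chromosome VII, 806412 to 807656), the yeast nucleolin, had 1689 RPKM at 220 min and 457 at 210 min (difference 1.88). SNU13, which binds box C/D snoRNAs and a spliceosomal RNA, had 828 RPKM at 220 min against 260 at 210 min. NOP58 and NOP1, of the box C/D methylation complex, had 511 RPKM at 220 min against 166 at 210 min and 616 RPKM at 220 min against 224 at 210 min, and CBF5, the pseudouridine synthase, had 695 RPKM at 220 min against 282 at 210 min. The exception was SRD1, a gene with a role in pre-ribosomal RNA processing, at 35.1 RPKM at 220 min and 81.7 at 210 min (difference -1.20, or -0.96 under median-ratio scaling). NOP58, NOP1, CBF5 and SRD1 lie outside the naming rule and were picked after their values were seen.

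The polymerases that transcribe ribosomal and transfer RNA genes, and their factors, differed in degree by complex. Of 40 genes for RNA polymerases I and III and their factors, 15 were at least 2-fold higher at 220 min and none lower. Their median difference was 0.79, and under median-ratio scaling 20 were at least 2-fold higher. Among the subunits of RNA polymerase I alone, which makes the large ribosomal RNA precursor, 6 of 7 were at least 2-fold higher (median 1.32). The largest subunit, RPA190, had 154 RPKM at 220 min and 59.7 at 210 min, RPA135 had 257 RPKM at 220 min against 96.7 at 210 min, and RPA12 had 334 RPKM at 220 min against 112 at 210 min. Of 10 subunits of RNA polymerase III, 3 were at least 2-fold higher (median 0.86), beside 6.61% of all kept genes. The 6 subunits of TFIIIC, the factor that binds transfer RNA genes, had a median difference of -0.43 and ranged from -0.62 to 0.12, and none passed 2-fold. RRN11, a subunit of the core factor of RNA polymerase I, had 21.8 RPKM at 210 min, 64.5 at 220 min and 15.8 at 230 min. These subgroups were formed, and RPA190, RPA135, RET1, RPC82 and RPC53 picked, after the values were seen.

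The lists of genes that act later in protein synthesis had smaller median differences. All 138 cytosolic ribosomal protein genes were higher at 220 min than at 210 min, with differences of 0.22 to 1.11 and a median of 0.63. The sign was the same for all 138 under median-ratio scaling, which raises each difference. At the deposited scaling 1 gene passed 2-fold (0.725% of the list, beside 6.61% of all kept genes), and 32 passed it under median-ratio scaling. That gene, RPS28B, stood at 728 RPKM at 220 min and 338 at 210 min (difference 1.11), and RPS29A followed at 389 RPKM at 220 min against 198 at 210 min (0.98). Together the 138 genes held 14.9% of all signal at 220 min, against 9.77% at 210 min. Their median level was 682 RPKM at 210 min, 1069 at 220 min and 1492 at 230 min, so it was higher still in the next library. Many exist as near-identical pairs of copies, so single values are uncertain. Of 40 translation factors, 6 (15%, beside 6.61% of all kept genes) were at least 2-fold higher and none lower (median 0.64). Under median-ratio scaling 14 were higher, beside 10.8% of all kept genes. YEF3, the fungal elongation factor eEF3, had 2727 RPKM at 220 min and 933 at 210 min, and its paralog NEW1 had 267 RPKM at 220 min against 80.5 at 210 min. Of 20 cytosolic tRNA synthetases, 4 (20%, beside 6.61% of all kept genes) were at least 2-fold higher, with a median of 0.72. Under median-ratio scaling 9 of them were higher, beside 10.8% of all kept genes. KRS1, for lysine, had 380 RPKM at 220 min against 138 at 210 min, and MES1, for methionine, 199 RPKM at 220 min against 86.7 at 210 min. Of 39 genes that modify or process transfer RNA, 12 (30.8%, beside 6.61% of all kept genes) were at least 2-fold higher and none lower (median 0.74). TRM11, a subunit of a tRNA methyltransferase, had 312 RPKM at 220 min and 87.4 at 210 min, and PUS1, a pseudouridine synthase, 197 RPKM at 220 min against 70.4 at 210 min.

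**Figure D2:**
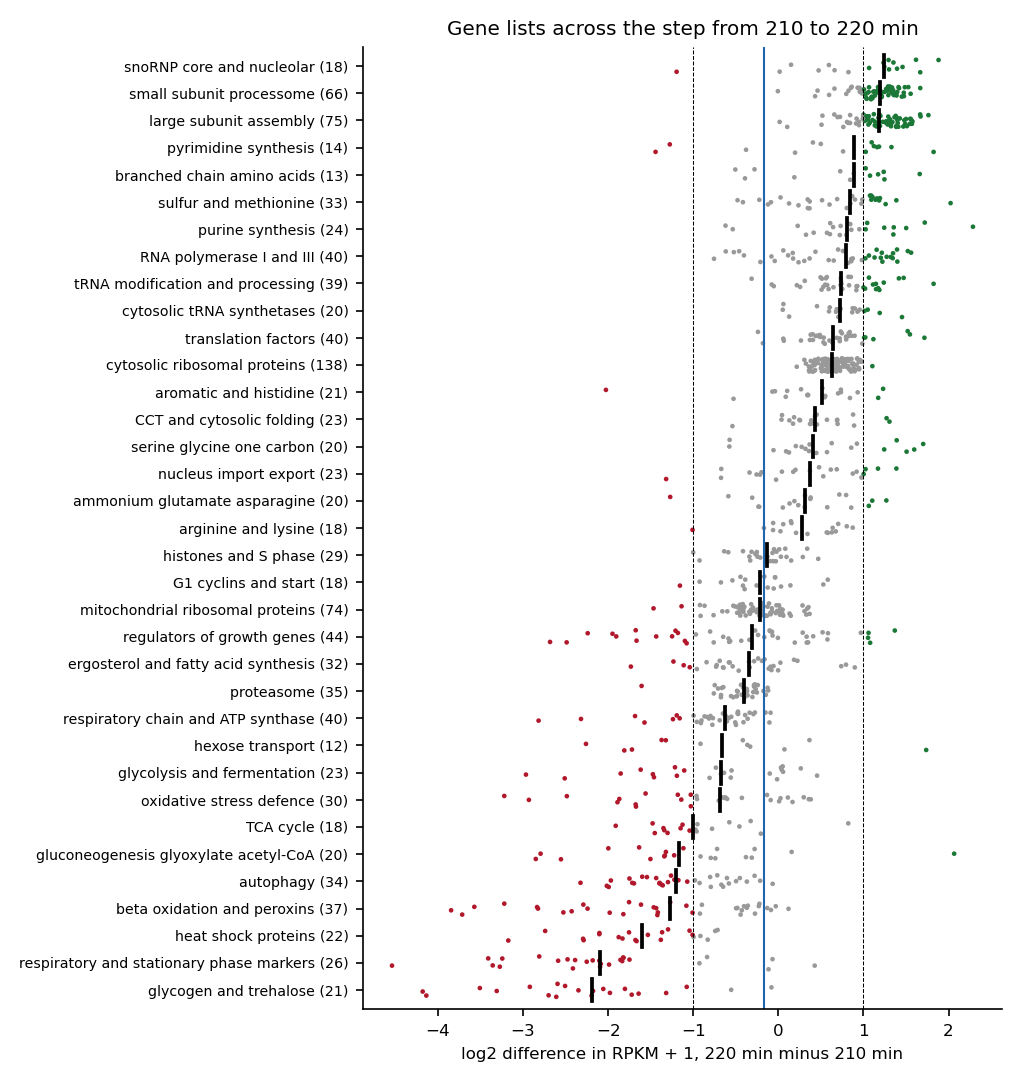
Difference in log2(RPKM + 1), 220 min minus 210 min, of each kept member of the 35 gene lists, ordered by list median (black bars), with the number of members in brackets. Green points are at least 2-fold higher at 220 min, red points at least 2-fold lower, and the blue line is the median of all kept genes, -0.16; the snoRNP list is at the top with a median of 1.24 and the glycogen and trehalose list at the bottom with -2.19.

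Nucleotide synthesis and sulfur metabolism, which feed RNA synthesis and methylation, were also higher at 220 min. Of 24 purine genes, 8 were at least 2-fold higher (13 under median-ratio scaling) and none lower (median 0.81). GUA1, the GMP synthase, had 1021 RPKM at 220 min and 309 at 210 min (difference 1.72). Of 14 pyrimidine genes, 7 were at least 2-fold higher and 2 lower (median 0.89). URA7, the CTP synthase, had 452 RPKM at 220 min against 127 at 210 min, and FUR4, the uracil permease, 132 RPKM at 220 min against 52.0 at 210 min. The lower members were YNK1, a nucleoside diphosphate kinase, at 142 RPKM at 220 min against 387 at 210 min, and URA10, an orotate phosphoribosyltransferase, at 20.1 RPKM at 220 min against 50.2 at 210 min. Of 33 genes of sulfate assimilation, methionine and cysteine, 11 were at least 2-fold higher (18 under median-ratio scaling) and none lower (median 0.84), and 24 had their highest level at 220 min. MET6, the methionine synthase, had 2392 RPKM at 220 min and 914 at 210 min. The list held 3.36% of all signal at 220 min, against 1.81% at 210 min. YNK1 and URA10 were picked after their values were seen.

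Amino acid pathways were uneven. Of all kept genes, 6.61% were at least 2-fold higher and 14.3% lower, or 10.8% and 10.1% under median-ratio scaling. Of 13 genes for branched-chain amino acids, 6 were at least 2-fold higher at 220 min and none lower (median 0.89). LEU1, of leucine synthesis, had 719 RPKM at 220 min and 302 at 210 min, and OAC1, a mitochondrial carrier, had 497 RPKM at 220 min against 156 at 210 min. Of 20 genes for serine, glycine and folate-bound carbon, 5 were at least 2-fold higher (median 0.41). SER2, the phosphoserine phosphatase, had 131 RPKM at 220 min against 39.5 at 210 min, and MIS1, the mitochondrial C1-tetrahydrofolate synthase, 211 RPKM at 220 min against 69.1 at 210 min. Of 18 arginine and lysine genes, none was at least 2-fold higher and 1 was lower (median 0.28), while under median-ratio scaling 2 were higher and none lower. LYS1, the last enzyme of lysine synthesis, had 651 RPKM at 220 min against 354 at 210 min (difference 0.87), and LYS12 had 885 RPKM at 220 min against 506 at 210 min (0.80). Of 21 genes for aromatic amino acids and histidine, 2 (9.52%) were at least 2-fold higher (4 under median-ratio scaling) and 1 lower (median 0.52). HIS6 had 96.4 RPKM at 220 min against 40.5 at 210 min and ARO7, the chorismate mutase, 106 RPKM at 220 min against 46.5 at 210 min. The lower gene was ARO9, an aminotransferase that breaks aromatic amino acids down, at 23.5 RPKM at 220 min and 98.7 at 210 min (difference -2.03), picked after its value was seen. Of 20 genes for ammonium, glutamate and asparagine, 3 were at least 2-fold higher (5 under median-ratio scaling) and 1 lower (median 0.31). AGP1, an amino acid permease, had 611 RPKM at 220 min against 253 at 210 min and ASN1, an asparagine synthetase, 1018 RPKM at 220 min against 473 at 210 min.

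A list of cytosolic folding factors and a list of heat shock genes had medians of opposite sign. In a list of the CCT ring, prefoldin and cytosolic folding factors, 2 of 23 (8.70%, beside 6.61% of all kept genes) were at least 2-fold higher at 220 min and none lower (median 0.43), and 4 were higher under median-ratio scaling. PAC10, a prefoldin subunit, had 157 RPKM at 220 min and 63.0 at 210 min, and SSB1, the ribosome-bound Hsp70, had 1848 RPKM at 220 min against 764 at 210 min. Of 22 heat shock genes, 17 were at least 2-fold lower and none higher (median -1.60), and all 22 lay below 0. HSP42, a small heat shock protein, had 48.4 RPKM at 220 min and 444 at 210 min (difference -3.17). HSP26, another, had 9774 RPKM at 210 min, 1463 at 220 min and 111 at 230 min, with a difference of -2.74 for 220 over 210 min. The list held 1.04% of all signal at 220 min, against 3.43% at 210 min. Import and export of the nucleus, a list of 23 genes, had 4 (17.4%) at least 2-fold higher, or 7 under median-ratio scaling. At least 2-fold lower was 1 gene (4.35%, beside 14.3% of all kept genes), and the median was 0.37. ARX1, an export factor of the large subunit, had 225 RPKM at 220 min against 85.5 at 210 min and YRB1, the Ran-binding protein, 1035 RPKM at 220 min against 459 at 210 min.

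Storage carbohydrate genes were the most strongly lowered list. Of 21 genes of glycogen and trehalose metabolism, 19 were at least 2-fold lower at 220 min, 13 of them at least 4-fold, and none was higher. Their median difference was -2.19 (-1.97 under median-ratio scaling), the median level was 11.9 RPKM at 220 min and 55.3 at 210 min, and 17 of 21 had their lowest level of the 12 libraries at 220 min. GIP2 (YER054C, chromosome V, 262052 to 263698), a regulatory subunit of the phosphatase Glc7, had 3.95 RPKM at 220 min and 88.7 at 210 min, 18.1-fold lower. GLC3, the glycogen branching enzyme, had 6.23 RPKM at 220 min against 126 at 210 min (difference -4.14). TSL1, a subunit of the trehalose synthase complex, had 2.18 RPKM at 220 min against 35.1 at 210 min (-3.51), and the catalytic subunit TPS1 had 26.7 RPKM at 220 min against 209 at 210 min (-2.92). Enzymes of breakdown were lower as well as those of synthesis. The phosphorylase GPH1 had 17.3 RPKM at 220 min and 81.9 at 210 min (-2.18), and the acid trehalase ATH1 had 5.49 RPKM at 220 min against 38.6 at 210 min (-2.61). The neutral trehalase NTH1 had 80.4 RPKM at 220 min against 85.1 at 210 min (-0.08, or 0.15 under median-ratio scaling). PGM2, a phosphoglucomutase, had 14.7 RPKM at 220 min against 154 at 210 min (-3.31), and its paralog PGM1 27.0 RPKM at 220 min against 40.2 at 210 min (-0.55). TPS1, GPH1, ATH1, NTH1, PGM1 and PGM2 were picked after their values were seen.

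A list of genes known from respiratory growth and stationary phase moved the same way. Of its 26 members, 21 were at least 2-fold lower at 220 min, 15 of them at least 4-fold, and none was higher (median -2.10). RGI2 (YIL057C, chromosome IX, 247902 to 248396), induced in respiratory growth, had 39.3 RPKM at 220 min and 936 at 210 min. That difference of -4.54, or 23.3-fold lower, was the lowest of all kept genes. ROQ1, a stress-induced regulator of protein degradation, had 22.5 RPKM at 220 min against 249 at 210 min (-3.41). Other genes among the 12 lowest with a symbol had varied roles. FAT3, of fatty acid uptake, had 7.22 RPKM at 220 min and 121 at 210 min. BDH2, a butanediol dehydrogenase-like gene, had 7.64 RPKM at 220 min against 106 at 210 min, RTN2, a reticulon, 21.2 RPKM at 220 min against 268 at 210 min, and GID11, of the GID ubiquitin ligase, 5.73 RPKM at 220 min against 75.2 at 210 min. USV1, a zinc finger factor, had 3.51 RPKM at 220 min against 51.0 at 210 min, which rests on an estimated 23.3 reads at 220 min and 281 at 210 min.

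Defence and recycling genes were lower in a graded way. Of 30 genes of defence against oxidants, 12 were at least 2-fold lower at 220 min and none higher (median -0.68). CTA1, the peroxisomal catalase, had 36.3 RPKM at 220 min and 346 at 210 min (difference -3.22), and CTT1, the cytosolic catalase, had 11.8 RPKM at 220 min against 96.5 at 210 min (-2.93). TRR1, the cytosolic thioredoxin reductase, had 317 RPKM at 220 min against 247 at 210 min (0.36), and was picked after its value was seen. Of 34 autophagy genes, 19 were at least 2-fold lower and none higher, all 34 lay below 0 (32 under median-ratio scaling), and the median was -1.20 (-0.98 under that scaling). ATG7, the activating enzyme of autophagosome conjugation, had 4.56 RPKM at 220 min against 26.8 at 210 min (-2.32), and ATG40, a receptor for autophagy of the endoplasmic reticulum, 10.6 RPKM at 220 min against 46.0 at 210 min (-2.02). Of 35 proteasome genes, 1 was at least 2-fold lower, all 35 lay below 0 (31 under median-ratio scaling) and the median was -0.40 (-0.16 under that scaling). That gene was RPN4, the transcription factor of proteasome genes rather than a subunit, with 52.5 RPKM at 220 min and 162 at 210 min (-1.61). The subunit gene RPN8 had 184 RPKM at 220 min against 312 at 210 min (-0.76).

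Fatty acid oxidation was lower as a whole, with the peroxisome's import machinery less so. Of 37 genes of the joint list, 21 were at least 2-fold lower at 220 min, 10 of them at least 4-fold, and none higher (median -1.27). Subgroups were formed after the values were seen, and they leave out some of the 37 genes. The 11 genes taken as oxidation enzymes and importers were all at least 2-fold lower, at -3.84 to -1.75 with a median of -2.43. Of 19 peroxins, which build the organelle, 6 were at least 2-fold lower, beside 14.3% of all kept genes. Their range was -2.82 to 0.12 and their median -0.44. PXA1 and PXA2, which together form the fatty acid transporter, had 7.39 RPKM at 220 min against 109 at 210 min and 2.91 RPKM at 220 min against 55.1 at 210 min. POX1, the first enzyme of the pathway, had 326 RPKM at 210 min, 26.5 at 220 min and 2.19 at 230 min.

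Acetate use and the supply of respiration were lower with exceptions. Of 20 genes of gluconeogenesis, the glyoxylate cycle and acetyl-CoA supply, 11 were at least 2-fold lower at 220 min and 1 higher (median -1.17, or -0.94 under median-ratio scaling). ACS1, an acetyl-CoA synthetase, had 125 RPKM at 220 min and 904 at 210 min (difference -2.85), and the acetate carrier ADY2 had 51.8 RPKM at 220 min against 365 at 210 min (-2.79). The higher member was MAE1, given above, and PCK1, of gluconeogenesis, was at 28.9 RPKM at 220 min against 25.8 at 210 min. Of 18 genes of the TCA cycle, 9 were at least 2-fold lower and none higher (median -1.01, or -0.77 under median-ratio scaling). CIT3, a citrate synthase, had 83.8 RPKM at 220 min against 318 at 210 min (-1.91), and MDH1, the mitochondrial malate dehydrogenase, 448 RPKM at 210 min, 160 at 220 min and 459 at 230 min (-1.48 for 220 over 210 min). All 40 genes for ATP synthase and the respiratory chain lay below 0 (37 under median-ratio scaling), 7 (17.5%, beside 14.3% of all kept genes) were at least 2-fold lower and the median was -0.62. Subgroups were formed after the values were seen. Among 14 ATP synthase subunits 1 was at least 2-fold lower (median -0.44), and among 9 subunits of the cytochrome bc1 complex 1 (median -0.80). Of all kept genes 14.3% were. The ATP synthase gene, ATP15, was at -1.16, or -0.92 under median-ratio scaling, so it then fell short. The bc1 gene, QCR10, was at -1.24, or -1.0035 under that scaling. The 2 most lowered were accessory genes, STF2, a factor of ATP synthase regulation, at 129 RPKM at 220 min against 917 at 210 min, and NDE2, an external NADH dehydrogenase, at 23.2 RPKM at 220 min against 120 at 210 min. PCK1, ATP15 and QCR10 were picked after their values were seen.

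Glycolysis was lowered at some enzymes and not at others. Of 23 genes, 9 (39.1%, beside 14.3% of all kept genes) were at least 2-fold lower at 220 min and none higher. The median was -0.67, or -0.44 under median-ratio scaling. The list held 3.42% of all signal at 220 min, against 6.29% at 210 min. The kinase genes HXK1 and GLK1 had 92.8 RPKM at 220 min against 732 at 210 min (difference -2.97) and 87.3 RPKM at 220 min against 502 at 210 min (-2.51), although GLK1 overlaps another annotated gene. TDH3, the main glyceraldehyde-3-phosphate dehydrogenase, had 4673 RPKM at 220 min and 10677 at 210 min (-1.19, or -0.96 under median-ratio scaling), and PGK1 had 1290 RPKM at 220 min against 3584 at 210 min (-1.47). CDC19, the main pyruvate kinase, had 1558 RPKM at 220 min against 2281 at 210 min (-0.55). PDC1, the pyruvate decarboxylase, had 1674 RPKM at 220 min against 1691 at 210 min (-0.01, or 0.22 under median-ratio scaling). Of 12 hexose transport genes, 5 (41.7%, beside 14.3% of all kept genes) were at least 2-fold lower. At least 2-fold higher was 1 (8.33%, beside 6.61% of all kept genes), and the median was -0.67. HXT5, a transporter linked to slow growth, had 77.0 RPKM at 220 min against 373 at 210 min (-2.26), HXT10 had 3.98 RPKM at 220 min against 16.5 at 210 min (-1.81), and HXT4, a transporter used at low glucose, 363 RPKM at 220 min against 108 at 210 min (1.74). TDH3, PGK1, PDC1 and HXT4 were picked after their values were seen.

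**Figure D3:**
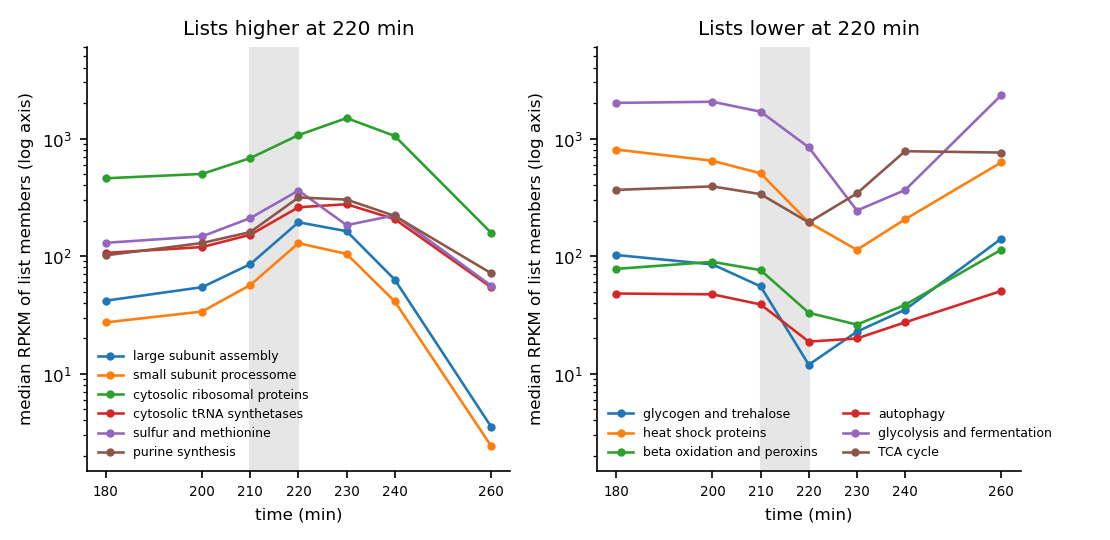
Median RPKM of list members (log axis) from 180 to 260 min for 6 lists higher at 220 min (left) and 6 lists lower at 220 min (right), with the step from 210 to 220 min shaded. Each point is the median over a list's genes in 1 library; the large subunit assembly list is at 194 RPKM at 220 min and 3.55 at 260 min, and the glycogen and trehalose list has its lowest point, 11.9 RPKM, at 220 min.

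Of 59 isozyme and paralog pairs listed, 57 had both genes kept. In 18 of these (31.6%, beside 47.9% of all possible pairs of kept genes) the copies had differences of opposite sign. Under median-ratio scaling there were 21 (36.8%, beside 49.7% of all pairs). At the deposited scaling the copies of 1 pair passed 2-fold in opposite directions, those of the plasma membrane proton pump. Under median-ratio scaling this pair no longer did, and 2 others, TKL1 and TKL2 (1.08 and -2.25) and GSP1 and GSP2 (1.21 and -1.08), did. PMA1, the main pump gene, had 2221 RPKM at 220 min and 818 at 210 min (difference 1.44), and PMA2 had 72.5 RPKM at 220 min against 150 at 210 min (-1.04, or -0.81 under median-ratio scaling). The copies are close in sequence, so reads of PMA1 may be counted in PMA2. Of the hexose kinases, HXK2 had 324 RPKM at 220 min against 315 at 210 min (0.04), beside the lower HXK1 and GLK1 above. Of the acetyl-CoA synthetases, ACS2 had 189 RPKM at 220 min against 246 at 210 min (-0.38), beside -2.85 for ACS1.

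The widest gaps of the 57 pairs were in 2 pairs of the pentose phosphate pathway. The lactonase gene SOL3 had 513 RPKM at 220 min and 443 at 210 min (0.21), while SOL4 had 14.1 RPKM at 220 min against 142 at 210 min (-3.24). The transketolase gene TKL1 had 723 RPKM at 220 min against 402 at 210 min (0.84), while TKL2 had 24.1 RPKM at 220 min against 139 at 210 min (-2.48). Other pairs of that pathway were closer, with GND1 and GND2, for 6-phosphogluconate dehydrogenase, at 0.44 and -1.82 and TAL1 and NQM1, for transaldolase, at -0.58 and -2.09. Elsewhere, the Ran GTPase gene GSP1 had 1081 RPKM at 220 min against 549 at 210 min (0.98) and GSP2 95.1 RPKM at 220 min against 238 at 210 min (-1.32). The Hsp110 gene SSE1 had 842 RPKM at 220 min against 705 at 210 min (0.26) and SSE2 43.9 RPKM at 220 min against 218 at 210 min (-2.29). Of the 18 pairs of opposite sign, the copy with the higher level at 210 min had the positive difference in 11. Of 4 genes of glycerol synthesis, 2 were at least 2-fold higher and 1 was lower. GPD1, a glycerol-3-phosphate dehydrogenase, had 53.8 RPKM at 220 min and 312 at 210 min (-2.51), while GPD2 had 370 RPKM at 220 min against 275 at 210 min (0.43). The phosphatases of the next step had differences of opposite sign to GPD1. GPP1 was at 3066 RPKM at 220 min against 974 at 210 min (1.65) and GPP2 at 1298 RPKM at 220 min against 344 at 210 min (1.91). At 230 min all 4 genes were below their 210 min levels. GPD1 was then at 57.4 RPKM, GPD2 at 75.1, GPP1 at 442 and GPP2 at 208. All pairs and single genes of these 2 paragraphs other than HXK2, ACS1, ACS2, HXK1, GLK1, GPP2, PMA1 and PMA2 were picked after their values were seen.

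**Figure D4:**
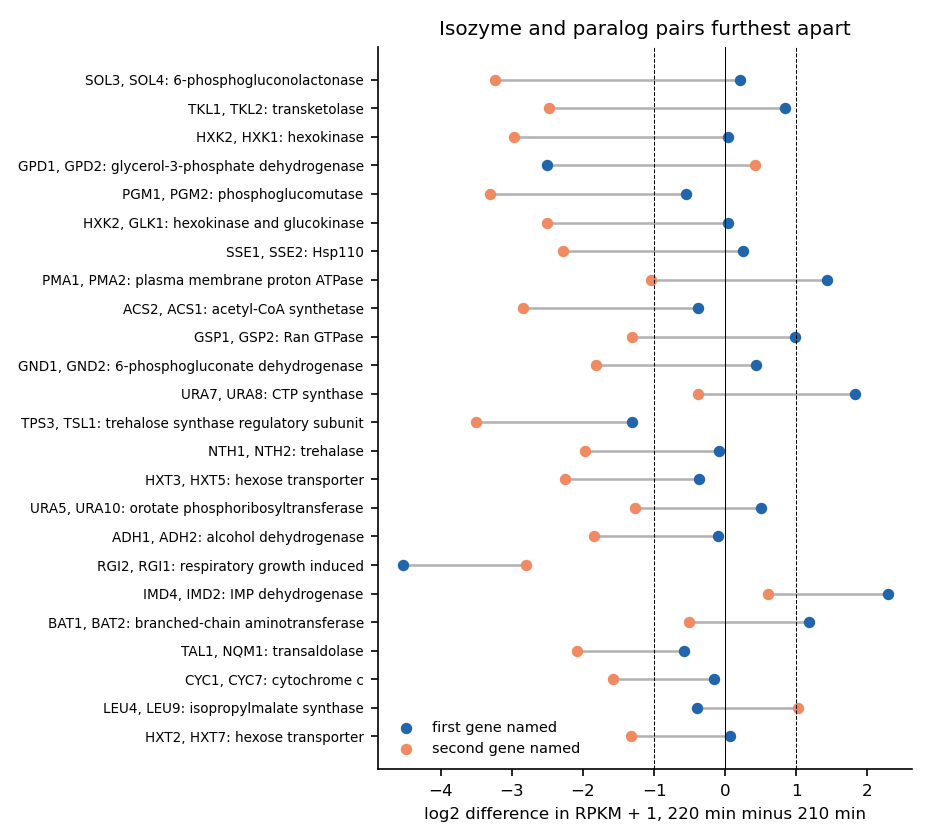
Difference in log2(RPKM + 1), 220 min minus 210 min, for the 24 isozyme and paralog pairs whose genes lie furthest apart, 1 pair a line, 1 library a time. The gaps run from 1.39 to 3.46; the pairs SOL3 and SOL4 and TKL1 and TKL2 are the widest, and PMA1 and PMA2 lie beyond 2-fold on opposite sides at the deposited scaling drawn here.

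Of 44 regulators of growth genes, 4 (9.09%, beside 6.61% of all kept genes) were at least 2-fold higher at 220 min and 13 (29.5%, beside 14.3%) lower, with a median of -0.31. Under median-ratio scaling 5 were higher and 9 lower. IFH1, the coactivator of ribosomal protein genes, had 53.7 RPKM at 210 min, 140 at 220 min and 41.8 at 230 min (difference 1.37 for 220 over 210 min). TOD6, a repressor of ribosome assembly genes, had 128 RPKM at 220 min against 61.3 at 210 min (1.05), and the related repressor DOT6 82.2 RPKM at 220 min against 97.2 at 210 min (-0.24). SFP1, an activator of ribosome genes, had 70.7 RPKM at 220 min against 57.8 at 210 min (0.29), and STB3, a repressor of them, 41.5 RPKM at 220 min against 65.6 at 210 min (-0.65). GCN4, the activator of amino acid synthesis, which is controlled mainly at translation, had 2391 RPKM at 220 min against 2681 at 210 min (-0.16, or 0.07 under median-ratio scaling). The stress factors MSN2 and MSN4 had 35.9 RPKM at 220 min against 53.5 at 210 min (-0.56) and 15.8 RPKM at 220 min against 28.4 at 210 min (-0.80), neither past 2-fold. RIM15, a kinase of quiescence, had 10.4 RPKM at 220 min against 15.9 at 210 min (-0.58) and SNF1, the kinase of glucose limitation, 33.6 RPKM at 220 min against 66.7 at 210 min (-0.97). HAP4, the activator of respiratory genes, had 177 RPKM at 210 min, 74.1 at 220 min and 457 at 230 min (-1.25 for 220 over 210 min).

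Members of the protein kinase A and Ras families differed. TPK2, a catalytic subunit, had 17.3 RPKM at 220 min against 102 at 210 min (-2.49), while TPK3, also a catalytic subunit, had 82.9 RPKM at 220 min against 41.8 at 210 min (0.97). BCY1, the inhibitory subunit, had 88.1 RPKM at 220 min against 187 at 210 min (-1.08, or -0.84 under median-ratio scaling). Of the small GTPases that activate adenylate cyclase, RAS1 had 198 RPKM at 220 min and 93.3 at 210 min (1.08), while RAS2 had 65.3 RPKM at 220 min against 152 at 210 min (-1.21, or -0.98 under median-ratio scaling). PDE2, the high-affinity cAMP phosphodiesterase, had 51.6 RPKM at 210 min, 109 at 220 min and 16.9 at 230 min (1.06 for 220 over 210 min). TPK3, BCY1, RAS1, RAS2 and PDE2 were picked after their values were seen.

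Several lists stayed near the middle of all genes. Of 74 genes listed as mitochondrial ribosomal proteins, 2 were at least 2-fold lower at 220 min (1 under median-ratio scaling) and none higher. The median of -0.22 became 0.02 under median-ratio scaling. The lower genes were KGD4 and MRP8, both listed there by older naming, and the other 72 passed 2-fold in neither direction. KGD4, now known as a subunit of a TCA cycle enzyme, was at 126 RPKM at 220 min and 350 at 210 min. MRP8 was at 182 RPKM at 220 min against 401 at 210 min. None of 29 histone and S-phase genes passed 2-fold (median -0.13, or 0.09 under median-ratio scaling). RFA1 and RFA3, subunits of replication protein A, had 36.7 RPKM at 220 min against 74.3 at 210 min and 80.6 RPKM at 220 min against 154 at 210 min. Of 18 genes of G1 cyclins and Start, 1 was at least 2-fold lower (median -0.21, or 0.02 under median-ratio scaling). That was SWI4, the DNA-binding subunit of the SBF factor, at 26.3 RPKM at 210 min, 11.3 at 220 min and 37.9 at 230 min (-1.16 for 220 over 210 min, or -0.93 under median-ratio scaling). STB1, which works with SBF and MBF, had 9.98 RPKM at 220 min against 19.9 at 210 min, and CLN3, the upstream G1 cyclin, 67.5 RPKM at 220 min against 46.5 at 210 min (0.53). Of 32 genes of ergosterol and fatty acid synthesis, 4 (12.5%, beside 14.3% of all kept genes) were at least 2-fold lower and none higher (median -0.34), while under median-ratio scaling 1 was lower and 2 were higher. HMG1, an HMG-CoA reductase, had 31.4 RPKM at 220 min against 107 at 210 min (-1.73) and ERG5, the sterol desaturase, 151 RPKM at 220 min against 356 at 210 min (-1.23). ACT1, the actin gene, had 995 RPKM at 220 min against 1203 at 210 min (-0.27, or -0.04 under median-ratio scaling).

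The genes past 2-fold had opposite courses over the neighbouring times. They were chosen by their levels at 220 and 210 min, which fixes the direction between those times. That choice also favours 220 min as their highest or lowest library. The median of the 395 higher genes was 42.1 RPKM at 200 min, 72.4 at 210 min, 168 at 220 min, 118 at 230 min, 52.7 at 240 min and 5.76 at 260 min. Of them, 338 were highest at 220 min and 52 at 230 min among the 12 libraries, and 251 had their lowest level at 260 min and 122 at 20 min. The median of the 857 lower genes was 87.2 RPKM at 200 min, 66.6 at 210 min, 19.9 at 220 min, 22.8 at 230 min, 39.4 at 240 min and 115 at 260 min. Their lowest library was 220 min for 484 and 230 min for 331, and their highest was spread, with 345 at 260 min and 153 at 20 min. Among all kept genes, 1069 were highest and 1312 lowest at 220 min. The 35 lists held 209 of the 395 higher genes (52.9%) and 176 of the 857 lower genes (20.5%), beside 1153 of all 5979 kept (19.3%).

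Some genes turned round within the next library. Of the 395 higher genes, 84 (21.3%, beside 6.46% of all kept genes) were also at least 2-fold higher at 220 min than at 230 min. Another 3 (0.759%, beside 6.69%) were at least 2-fold higher again at 230 min. Of the 857 lower genes, 146 (17.0%, beside 6.69% of all kept genes) were also at least 2-fold lower at 220 min than at 230 min. Another 148 (17.3%, beside 6.46%) were at least 2-fold lower again at 230 min. These sets and the genes named from them here were formed after the values were seen, and they rest on the 220 min library at both of their edges. Peaks of 1 library included ZRT1, a zinc transporter, at 59.3 RPKM at 210 min, 200 at 220 min and 41.0 at 230 min. PHO90, a phosphate transporter, had 69.1, 225 and 62.8 RPKM at 210, 220 and 230 min, and PHO3, an acid phosphatase, 29.3, 117 and 34.7 RPKM at the same times. FSH1, a serine hydrolase, had 96.7, 381 and 128 RPKM at these times. Dips included ISF1, with 179, 40.7 and 151 RPKM at 210, 220 and 230 min, and MPC3, a subunit of the mitochondrial pyruvate carrier, with 654, 66.7 and 220 RPKM. SRX1, sulfiredoxin, had 9.20, 1.38 and 13.2 RPKM in that order of times, and MTH1, a repressor of hexose transporter genes, 87.9, 26.0 and 81.8 RPKM. The genes higher again at 230 min were UTR2 (14.2, 53.7 and 123 RPKM), SCW10 (307, 639 and 1669 RPKM) and GIC2 (41.96, 87.7 and 265 RPKM), each at 210, 220 and 230 min. UTR2 and SCW10 code for cell wall proteins and GIC2 for a Cdc42 effector of bud growth. Lower again were FOX2, of fatty acid oxidation, at 277, 38.01 and 1.87 RPKM, and CAT2, a carnitine acetyltransferase, at 172, 28.4 and 4.35 RPKM at those times.

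**Figure D5:**
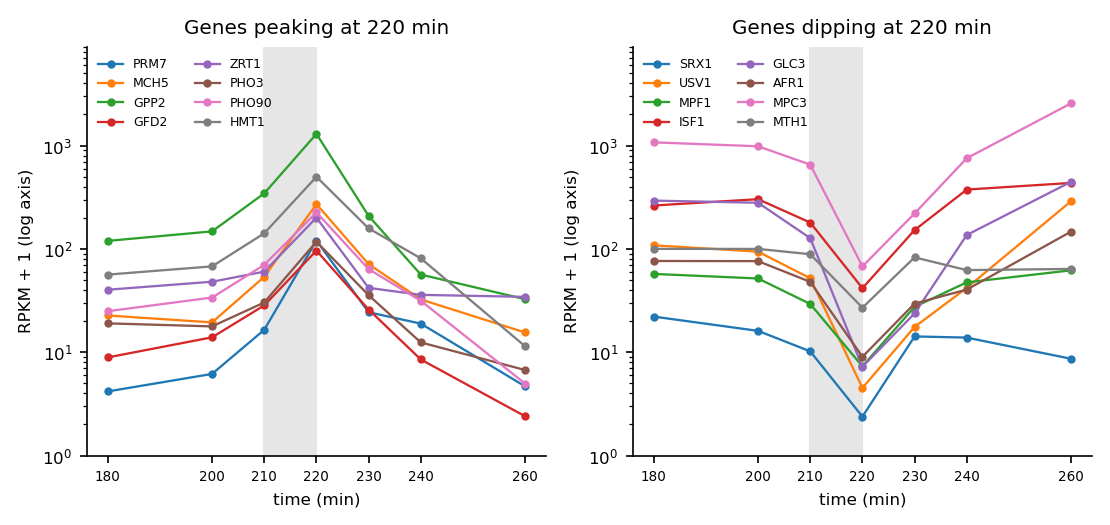
RPKM + 1 (log axis) from 180 to 260 min of 8 genes at least 2-fold higher at 220 min than at both neighbouring times (left) and 8 genes at least 2-fold lower than at both (right), chosen after the values were seen. Each point is 1 library, and PRM7 stands at 15.5 RPKM at 210 min, 119 at 220 min and 23.4 at 230 min.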

How the data were processed

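The RNA-seq libraries of 220 min and 210 min were compared, and the MNase-seq data were left aside. The NEBNext Ultra kit and hot phenol extraction are stated in the labels' protocols. The kit keeps no strand information, so overlapping and antisense genes can share reads. The submitters' processing notes name Bowtie2 and build R64, and the counting step is not given in the sources used here. Per gene and library, the authors deposited a signal that behaves as base coverage divided by gene length and library size. It was divided by 50, the read length read from the values, since 28 of 200 low values at 220 min and 20 of 200 at 210 min fell at 1 to 4 reads, against a median of 1 at other assumed depths. The analysis had been planned for RPKM, and this conversion rests on the values alone. Depths are estimates from those low values, so no counting interval was made. The number heading each column was matched to the time point number of the sample's title. A second deposited table was not used, and 4 lines of the table used were empty.

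Of 6562 genes, 5891 were matched by systematic name to the RefSeq annotation of build R64, which gave symbols, coordinates and lengths, and 671 were not. Of the kept genes, 503 were not matched and 157 overlap another gene. Differences are log2(RPKM + 1) at 220 min minus 210 min, counted as higher or lower from 2-fold, with no test. The members, the 35 gene lists and the 59 pairs were chosen with earlier results of these data known. Genes named are the 12 highest and 12 lowest differences among genes with a symbol, the 2 most extreme of each list in the direction of its median, pairs opposed past 2-fold, and 17 regulators and marker genes whatever their values. The rule gave 105 genes, of which some are not reported here. Genes outside it were picked after their values were seen. Median-ratio size factors, computed over 6417 genes above 0 in every library, were 0.934 at 220 min and 1.10 at 210 min. The calculation was checked on simulated libraries with counting noise only, in which few genes were changed. Many genes moved in the step described here, so that check does not cover its scaling. Python 3.11.15, numpy 2.4.6, pandas 2.3.3 and matplotlib 3.10.9 were used.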

Additional observations from a re-analysis of the deposited data

How the results depend on the processing

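No paired analysis was possible because each time has 1 library. Counts of genes at least 2-fold higher at 220 min than at 210 min changed by over 1.5 times in 3 of the settings tried. The count was 395 as reported, 646 under median-ratio scaling, 213 among the 3085 genes averaging 50 RPKM or more (6.90% of them), and 832 with 200 min in place of 210 min. Counts of genes at least 2-fold lower were 857 as reported and 545 among those 3085 genes (17.7%), and 602 to 1050 in the other settings. The smaller counts at 50 RPKM come from fewer genes counted. Pseudocounts of 0.1 and 5 RPKM gave 401 and 348 higher genes, and leaving out unmatched genes, an alternative chosen after seeing the data, gave 357. Median-ratio scaling shifted list medians by about 0.23. It brought 3 of 10 list medians past 2-fold inside it and changed the sign of 3 others near 0, all given with those lists above. Of 85 named genes past 2-fold, PMA2 (-0.81), MRP8 (-0.90), SWI4 (-0.93) and ERG5 (-0.998) then fell short. A pseudocount of 5 RPKM took the medians of the TCA cycle (-0.99) and autophagy (-0.94) and the difference of SWI4 (-0.95) inside 2-fold. With 230 min in place of 220 min, the medians of the processome (0.87), large subunit assembly (0.76) and the TCA cycle (-0.37) were inside 2-fold, and 31 of the 85 named genes were no longer past it. Of the 85, 6 had the other sign, GPP2 (-0.72), RRN11 (-0.44), IFH1 (-0.35), SWI4 (0.51), MDH1 (0.035) and HAP4 (1.36). HAP4 was past 2-fold in that other direction. The cause was not tested. With 1 library a time, no alternative measures the spread between cultures.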
